A study of Homo sapiens with 6 samples.

Results

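miR-210 is the microRNA (miRNA) most closely tied to low oxygen, and its 2 mature arms, hsa-miR-210-3p and hsa-miR-210-5p, were examined here in MDA-MB-231 breast cancer cells with and without a phosphorylation-defective retinoic acid receptor. The arms were taken by name as 2 of the 1582 miRNAs in the deposited count table, by a rule that uses no value, although earlier results of these data were known when they were chosen. MDA-MB-231 is an established triple-negative breast cancer (TNBC) cell line. The 6 small RNA libraries comprised 3 of non-transfected cells (control) and 3 of cells given RARαS77A (RARαS77A cells), a mutant of retinoic acid receptor α whose serine-77 cannot be phosphorylated, which the series record describes as delivered by lentivirus. Both groups share the parental line, and no library of empty-vector or wild-type RARα cells was analysed here, so delivery of the construct and the mutant itself cannot be told apart. Neither whether the transfected cells were a clone or a pool nor whether the triplicates were separate cultures is given in the sources used here, so the p-values may measure technical spread only. In bulk RNA such as this, fewer cells making a miRNA and less of it per cell cannot be told apart either.

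When oxygen falls, the α subunits of the hypoxia-inducible factors (HIF) escape hydroxylation and degradation, enter the nucleus and activate genes for glycolysis, vessel growth and survival. MIR210 is a direct HIF target in nearly every cell type studied, which makes miR-210 a common marker of hypoxia in tumors, breast carcinoma included. The mature miR-210-3p, the guide arm, represses among others ISCU, an assembly factor for iron-sulfur clusters, and by this slows mitochondrial respiration, whereas miR-210-5p is the passenger arm of the same hairpin.

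The sequences of both arms are shown because the counts distinguish the arms, and because the seed (bases 2 to 8, in capitals) sets which mRNAs each arm can pair with. They come from RefSeq (GRCh38.p14), where both arms matched by name.
hsa-miR-210-3p: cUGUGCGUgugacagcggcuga
hsa-miR-210-5p: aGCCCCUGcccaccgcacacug
The arms carry unrelated seeds. None of the other 2369 mature human miRNAs in the RefSeq table shares either seed, so within that set miR-210 formed a family of its own. The set is not complete, since miR-21-3p was not found in it by name. The longest run of bases that miR-210-3p shares with another mature miRNA was 8, and that of miR-210-5p was 10, each out of 22 bases. On the opposite strand (reverse complement) the longest run was 8 for miR-210-3p and 12 for miR-210-5p, the latter with miR-6721-5p. No other row of the count table held counts within 5% of either arm in all libraries.

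Both arms come from 1 hairpin of 110 bases, shown here with the 5p arm (bases 28 to 49) and the 3p arm (bases 66 to 87) in capitals.
MIR210 hairpin: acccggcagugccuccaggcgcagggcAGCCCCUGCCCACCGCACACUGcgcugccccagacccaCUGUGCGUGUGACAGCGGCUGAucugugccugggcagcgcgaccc
The hairpin lies on the minus strand at chr11:568089-568198 (GRCh38). miR-210-3p occupies chr11:568112-568133 and miR-210-5p chr11:568150-568171. In GENCODE 29, MIR210 lies inside the long non-coding RNA gene MIR210HG (chr11:565660-568457, minus strand) and overlaps none of its annotated exons, which places it in an intron. RefSeq lists 2 other miRNA hairpins within 1 Mb of MIR210, MIR6743 and MIR6744, with 4 mature arms. A single one of these, miR-6743-3p, was in the count table, with at most 2 counts per library, so no neighbouring miRNA could be compared with miR-210.

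Because the hairpin lies inside the MIR210HG gene, the 300 bases around the start of that gene (250 before and 50 after, RefSeq GRCh38.p14, minus strand, chr11:568408-568707) are shown as context. Capitals mark the core letters bound by HIF, ACGTG or GCGTG, and AGGTCA, the element bound by retinoic acid receptors.
MIR210HG promoter: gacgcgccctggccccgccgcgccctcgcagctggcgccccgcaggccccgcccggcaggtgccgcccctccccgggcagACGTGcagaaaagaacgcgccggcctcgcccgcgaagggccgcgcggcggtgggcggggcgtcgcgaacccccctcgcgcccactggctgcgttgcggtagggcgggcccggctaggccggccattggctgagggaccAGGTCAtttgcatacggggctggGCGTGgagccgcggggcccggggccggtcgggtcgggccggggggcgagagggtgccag
Both strands were searched. ACGTG occurred once, at bases 81 to 85 of the window, GCGTG once, at bases 242 to 246, and AGGTCA once, at bases 219 to 224, with no overlap between them. These letters are common. Of the 35116 promoter windows in the table, 21.4% hold ACGTG and 36.5% hold GCGTG. The retinoic acid receptor letters AGGTCA are in 13.8% of them. AGGTCA repeated in the same direction with a gap of 5 or 2 bases was not in this window. Such matches describe the letters only, and binding was not measured.

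The libraries held between 9019266 and 11338580 counts. The deposited TPM was the count divided by the library total, with no length term. Counts were scaled by TMM, which corrects the totals for composition, and levels are given as TMM-normalized CPM, counts scaled to a common library size. The limit for a call was a Benjamini-Hochberg adjusted p of 0.05 in edgeR's quasi-likelihood test, by which 118 of the 506 miRNAs tested (23.3%) were higher in RARαS77A cells and 107 were lower. The label of the line was checked on miRNA abundance: miR-21-5p and miR-100-5p ranked 1 and 2 in every library. Of the epithelial miRNAs, miR-200b-3p had between 419 and 522 counts (ranks 156 to 169) and miR-200c-3p between 254 and 462 (175 to 187). miR-200a-3p had between 131 and 287 (189 to 223) and miR-429 between 37 and 83 (272 to 341). The counts of miR-205-5p were between 1 and 90 (268 to 942) and those of miR-141-3p between 4 and 7 (507 to 633). Several epithelial miRNAs were thus well detected, so these ranks do not settle the label. Control replicate 3 stood apart from the other controls. Across the tested miRNAs, which are not independent replicates, its log2 CPM had a mean Pearson correlation of 0.956 with the other controls and of 0.968 with the RARαS77A libraries. Control replicates 1 and 2 had 0.981 with each other and a mean of 0.927 with the RARαS77A libraries. In addition, 6 miRNAs had at least 50 counts in control replicate 3 and in every RARαS77A library, but under 5 in control replicates 1 and 2. The reason for this was not tested.

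To determine whether RARαS77A changed the hypoxia-linked guide arm, the counts of miR-210-3p were compared between groups. miR-210-3p had 2989, 4675 and 2775 counts in control libraries, and 791, 856 and 770 in RARαS77A libraries. Scaled by TMM, these were 239.7, 318 and 254 CPM in control cells and 101, 102 and 92.7 CPM in RARαS77A cells. All 3 RARαS77A libraries lay below all 3 controls, and the lowest control was 2.35-fold above the highest RARαS77A library. Control replicate 3 lay between control replicates 1 and 2.

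miR-210-3p fell from 270.3 ± 41.7 CPM in control cells to 98.4 ± 4.99 CPM in RARαS77A cells (mean ± SD of 3 libraries each). On the log2 scale this was a change of -1.46 (standard error 0.14, 95% interval -1.78 to -1.14, adjusted p = 0.000249, edgeR's quasi-likelihood test), so that the level was 2.75-fold higher in control cells (95% interval 2.20 to 3.43). At the same limit, 21.1% of all tested miRNAs were lower in RARαS77A cells, and in 27.1% of them all RARαS77A libraries lay below all controls. An exact permutation test gave p = 0.1 (two-sided), the smallest that 3 against 3 libraries allow. Counting error was small beside this difference. As deposited TPM, the lower bound of the lowest control library was 267 and the upper bound of the highest RARαS77A library was 89.1 (95% Wilson intervals, which cover counting error only).

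Larger decreases than this were found mainly among miRNAs of lower abundance. Of the 107 miRNAs called lower, 29 had a more negative log2 fold change than miR-210-3p. Among the 99 tested miRNAs with a mean count at least as high as that of miR-210-3p, of which 25 were called lower and 40 higher, its log2 fold change was the third most negative. By count, miR-210-3p ranked 95, 80 and 84 among all miRNAs in control and 125, 128 and 130 in RARαS77A libraries. These ranks do not depend on scaling, but a rank also falls when other miRNAs rise. They did not overlap between groups, but the share of all miRNAs for which this holds by rank was not computed. By CPM, all RARαS77A libraries lay below all controls in 27.1% of tested miRNAs, so such a gap was common.

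The passenger arm was far less abundant. miR-210-5p had 54, 131 and 89 counts in control libraries, and 50, 42 and 50 in RARαS77A libraries. These were 4.33, 8.90 and 8.13 CPM in control cells and 6.36, 5.001 and 6.02 CPM in RARαS77A cells after TMM scaling. The groups overlapped, since control replicate 1 had the lowest value of all libraries and the other controls had the highest. The control mean was 7.12 ± 2.45 CPM, and that of RARαS77A cells was 5.79 ± 0.707 CPM (SD of 3 libraries). miR-210-5p did not pass the limit, at -0.30 on the log2 scale with a standard error of 0.29 (adjusted p = 0.431 by edgeR). Its 95% interval ran from -0.98 to 0.38 and so held both a decrease and an increase. The exact permutation test gave p = 0.5 (two-sided).

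**Figure D1:**
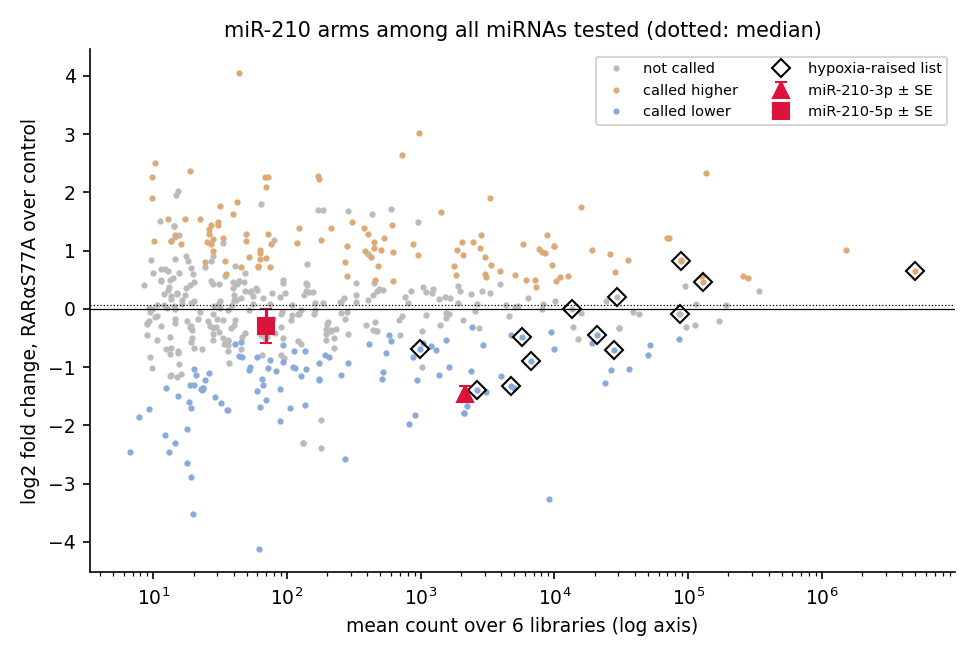
Log2 fold change (RARαS77A over control, edgeR with TMM) against the mean count over 6 libraries (log axis) for the 506 miRNAs tested, colored by call, with the miR-210 arms in red (error bars, standard error) and the tested members of the hypoxia-raised list as diamonds. miR-210-3p lies at -1.46, far below the dotted median of 0.06, and miR-210-5p lies at -0.30 among miRNAs of low count.

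A comparison of the arms with each other within a library needs no scaling. miR-210-3p outnumbered miR-210-5p by 55.4, 35.7 and 31.2 to 1 in the control libraries and by 15.8, 20.4 and 15.4 to 1 in the RARαS77A libraries. The ratio was thus lower in every RARαS77A library than in any control, with means of 40.7 ± 12.9 and 17.2 ± 2.76 (SD, n = 3 each). On the log2 scale the ratio changed by -1.22 (standard error 0.27, 95% interval -1.83 to -0.61, adjusted p = 0.00459, limma over 117 miRNAs with both arms counted). This corresponds to a ratio 2.32-fold higher in control cells (95% interval 1.52 to 3.54). By this test the balance of the 2 arms differed between the groups, as it did in 52.1% of all pairs. In 34.2% of all pairs the RARαS77A libraries lay below all controls in this ratio. The exact permutation test again gave its smallest possible p of 0.1.

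Expressed as a share, miR-210-5p took 2.54% ± 0.686 of the miR-210 counts of control libraries and 5.57% ± 0.780 of those of RARαS77A libraries (SD over 3 libraries). Because the 5p arm had at most 131 counts, the counting error of single libraries was not negligible. The highest control, replicate 3, was at 3.11% (95% Wilson interval 2.53 to 3.81), and the lowest RARαS77A library, replicate 2, was at 4.68% (3.48 to 6.26), so these intervals overlapped.

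A change in the balance of arms was common in these cells. Of the 117 arm pairs, 52.1% passed the limit, and in 30.8% the ratio of 3p to 5p fell, as it did for miR-210. The median change over all pairs was -0.17 on the log2 scale. When each pair was instead ordered by abundance, with the more abundant arm as the guide, 46 pairs gained guide relative to passenger and 15 lost it among those that passed. miR-210 was one of the 15, and its change ranked 7 from the lowest of 117, where the median was 0.36 and the values ran from -1.79 to 3.95. This ordering was chosen after the values had been seen.

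The miRNAs whose levels followed miR-210-3p most closely over the 6 libraries were found by the root mean square difference between log2 CPM profiles, each centered on its own mean, among the 312 whose mean count reached 50. The nearest were miR-181a-3p (0.13), miR-106b-5p (0.14), miR-21-3p (0.18), miR-107 (0.19) and miR-339-5p (0.20), against a median of 0.80. The 6 points share the same libraries and the same scaling, and nearness is a description only. All 5 lay lower in each RARαS77A library than in any control, which follows from how they were chosen, so their calls are no separate support. miR-181a-3p, the passenger arm of a miR-181 hairpin, went from 329 ± 36.8 to 126 ± 13.7 CPM, with a log2 fold change of -1.39. miR-106b-5p, a relative of miR-17 that limits cell cycle inhibitors, went from 387 ± 39.96 to 144 ± 14.1 CPM, with a log2 fold change of -1.43. The passenger arm miR-21-3p had a log2 fold change of -1.36, miR-107 of -1.33 and miR-339-5p of -1.66. For each of these the adjusted p was between 0.000215 and 0.000334 (edgeR).

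The mature sequences of 4 of these (miR-21-3p was not matched by name), from RefSeq (GRCh38.p14) with the seed in capitals, are shown to compare their seeds with that of miR-210-3p.
hsa-miR-181a-3p: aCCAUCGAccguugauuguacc
hsa-miR-106b-5p: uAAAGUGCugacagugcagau
hsa-miR-107: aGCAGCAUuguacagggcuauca
hsa-miR-339-5p: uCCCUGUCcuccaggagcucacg
No pair of these 4 shares a seed, and none of the 4 has that of miR-210-3p. Their genes lie on chromosomes 1, 7, 10 and 7, respectively, away from MIR210 on chromosome 11.

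For the uncalled passenger arm miR-210-5p, the nearest profiles were less close. miR-320c, miR-4454, miR-1180-3p, miR-181a-5p and miR-181a-2-3p differed from it by 0.27, 0.28, 0.28, 0.29 and 0.29 log2 units, where the median was 0.51. Their log2 fold changes were small, from -0.44 to -0.09, and miR-181a-5p alone among them passed the limit (adjusted p = 0.0176, edgeR), though not under upper quartile scaling (-0.24, adjusted p = 0.211). The others passed it in some alternatives. All 4 did with total counts and with limma on TPM, where the median of all miRNAs is lower. miR-4454 and miR-1180-3p also did with DESeq2 (-0.49 and -0.31) and with total counts without the 5 most abundant miRNAs (-0.68 and -0.51), miR-1180-3p with RLE size factors (-0.31), and miR-4454 without a filter (-0.62) and without control replicate 3 (-0.59).

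To place miR-210 beside the rest of the hypoxia program, 16 other miRNAs known to rise in hypoxia were examined. Of these, 13 passed the count filter, and 3 were higher, 7 were lower and 3 were not called in RARαS77A cells. Thus 76.9% were called, while over all tested miRNAs 44.5% were called, 23.3% higher and 21.1% lower. That share is not matched for abundance, since each tested member but miR-424-5p had a higher mean count than miR-210-3p. Of the 99 tested miRNAs at least as abundant as miR-210-3p, 40 were called higher and 25 lower. The median log2 fold change of the tested list members was -0.44, against 0.06 over all tested miRNAs. The other 3 members, miR-155-5p, miR-181c-5p and miR-373-3p, had at most 19 counts in any library. The largest decreases were those of miR-181a-3p, given above, and miR-107, which restrains HIF-1β and Dicer and went from 596 ± 17.0 to 237 ± 44.9 CPM (SD, n = 3 each). miR-107 shares 21 of its 23 bases in a row with miR-103a-3p, whose log2 fold change was -0.09 (adjusted p = 0.610, edgeR), so its counts depend on how reads common to both were assigned.

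The largest increases on the hypoxia list went against the direction of miR-210-3p. miR-24-3p rose from 6521 ± 716 to 11573 ± 1282 CPM, a change of 0.83 on the log2 scale (adjusted p = 0.00171 by edgeR), but its counts were within 5% of those of miR-3074-5p in every library and cannot be separated from them. miR-21-5p, an abundant oncogenic miRNA, rose from 393550 ± 50542 to 616902 ± 16060 CPM, a change of 0.65 on the log2 scale (adjusted p = 0.0482 by edgeR). miR-24-3p lost its call with total counts (0.24) and with limma on TPM (0.25). miR-21-5p lost its call without RARαS77A replicate 1, 2 or 3 (0.56, 0.69 and 0.67) and with a replicate block (0.66, adjusted p = 0.130, edgeR). It also lost it with RLE size factors (0.60), with total counts without the 5 most abundant miRNAs (0.42), with total counts (0.079, adjusted p = 0.716, edgeR) and with limma on TPM (0.082), so that most of its difference was not seen without composition scaling. With total counts, 0 members of the list were higher and 9 lower, where 10.1% of all tested miRNAs were higher and 42.1% lower. With upper quartile scaling 3 were higher and 4 lower, where the shares of all tested miRNAs were 27.9% and 14.6%.

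A second list held 14 miRNAs known to act on HIF1A or other parts of the pathway. Of the 12 tested, 2 were higher, 3 were lower and 7 were not called, a called share of 41.7% that was near the 44.5% of all tested miRNAs. The median log2 fold change was 0.02, against 0.06 over all. miR-17-5p and miR-20a-5p of the miR-17-92 cluster, which act on HIF1A, had log2 fold changes of -1.28 (adjusted p = 0.000560, edgeR) and -1.03 (adjusted p = 0.00143, edgeR). miR-17-5p went from 2984 ± 388.7 to 1230 ± 225 CPM (SD, n = 3 each), and it shares a run of 22 bases with miR-106a-5p. The epithelial miR-200b-3p was at 0.49 (adjusted p = 0.0241) and miR-22-3p at 0.47 (adjusted p = 0.0200, edgeR). The call of miR-200b-3p was lost without replicate 1 or replicate 2 of either group (from 0.43 to 0.50) and with a replicate block (0.50, adjusted p = 0.0640, edgeR), and miR-22-3p without RARαS77A replicate 3 (0.40). Calls of miR-200b-3p and miR-22-3p were also lost with total counts without the 5 most abundant miRNAs (0.26 and 0.24) and without a filter (0.30 and 0.29). Scaled to total counts, both had slightly negative values, and 0 of the list were higher and 6 of 12 lower, where 10.1% of all tested miRNAs were higher and 42.1% lower.

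The call and the direction of miR-210-3p were kept under each scaling tried, but the size of its fall was not. With total counts alone, the median over all tested miRNAs went from 0.06 to -0.51 and miR-210-3p to -2.04. Upper quartile scaling moved the median to 0.27 and miR-210-3p to -1.25. A change of scaling shifts all miRNAs by nearly the same amount, so the gap of miR-210-3p to the median, -1.52 with TMM, is the same by construction and is no separate support. With total counts miR-210-5p passed the limit, at -0.89 (adjusted p = 0.0487 by edgeR). Without control replicate 3, the library that stood apart, the log2 fold change of miR-210-3p was -1.56 (adjusted p = 3.83e-05, edgeR), that of miR-210-5p was -0.25 (adjusted p = 0.575, edgeR), and the arm ratio changed by -1.39 (adjusted p = 0.00790, limma). When control replicate 1, 2 or 3 was left out, 17.8%, 18% and 22.1% of tested miRNAs were lower and 20.1%, 23% and 23.8% higher. When RARαS77A replicate 1, 2 or 3 was left out, 18%, 18.4% and 19.2% were lower and 19%, 19.4% and 20.8% higher.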

How the data were processed

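Small RNA libraries of 3 control and 3 RARαS77A samples were sequenced by the authors on an Illumina instrument after NEBNext library preparation. The authors deposited read counts per mature miRNA, not normalized, and TPM, which equals the CPM of its column without TMM (largest difference 4.74e-05). The submitters' processing notes name Bowtie. The sources used here do not give its version, the reference build or the treatment of reads with several matches.

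Counts were tested with edgeR 4.0.16 in R 4.3.3 (TMM, filterByExpr with a minimum count of 10, glmQLFTest, no block, adjusted p under 0.05). Standard errors come from dividing each log2 fold change by √F. Arm ratios, log2((3p + 0.5)/(5p + 0.5)), were tested with limma 3.58.1 in pairs with a mean count of at least 10 in both arms. Alternatives used DESeq2 1.42.0, limma-voom, limma on log2(TPM + 1) or log2(TPM + 10), other scalings and filters, a replicate block and single libraries left out. Permutation tests and Wilson intervals used scipy 1.17.1. A count of 0 allows up to 3 counts, or 0.333 TPM in control replicate 3. The script was tested on simulated data, where edgeR called 57.1% of the 2-fold and 95.5% of the 4-fold changes put in. A 2-fold change was thus often not called.

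Named miRNAs are both arms, from each list the 2 largest called changes in each direction with a mean count of at least 50, and the 5 nearest profiles of each arm. Members and lists were chosen with earlier results of these data known. The members left unnamed by this rule but given here for their low counts or as look-alikes were chosen after their values were seen.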

Additional observations from a re-analysis of the deposited data

How the results depend on the processing

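miR-210-3p kept its direction and its call in each of 16 alternatives, between -2.04 and -1.25 on the log2 scale (adjusted p up to 0.00208) and from -1.56 to -1.30 without single libraries. The arm ratio did so under all 11 of its alternatives, from -1.39 to -0.98 (adjusted p up to 0.0163). miR-210-5p stayed negative, from -0.89 to -0.06 (adjusted p from 0.0487 to 0.878), and passed the limit with total counts (-0.89), where scaling lowers the median of all miRNAs. Its 42 to 131 counts per library limit what could be detected.

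The 118 higher miRNAs became 51 with total counts and 55 and 59 with limma on TPM plus 1 and plus 10, and the 107 lower ones became 213, 221 and 218 in the same settings, which have no composition factor, and 162 without a filter, where 1582 miRNAs were tested. Without single libraries between 101 and 125 were higher and between 92 and 116 lower. Both lists kept their number of called members within 1.5 times. miR-200b-3p reversed with total counts (-0.081) and limma on TPM (-0.077 and -0.065), as did miR-22-3p (-0.10, -0.098 and -0.097), and miR-320c with upper quartile scaling (0.12) and without control replicate 2 (0.054; range without single libraries -0.20 to 0.054), all without a call. For named miRNAs other than the arms, 206 values kept both their direction and their side of the limit. With the direction kept, 23 lost a call and 19 gained one. The other 8 are the reversed values above, of which those of miR-200b-3p and miR-22-3p also lost a call. Same-numbered libraries deviated together only weakly (correlations of 0.0353, 0.103 and 0.0165) and were not treated as pairs. With a replicate block, miR-210-3p was at -1.45, miR-210-5p at -0.25 and the arm ratio at -1.22, with 107 higher and 94 lower miRNAs. Among named miRNAs the block ended the calls of miR-21-5p and miR-200b-3p.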
